A study of Mus musculus with 4 samples.

Results

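The cells described here are barcodes that carried RNA of both Ccr7 and Fscn1 and none of the CD3 genes, the combination that marks migratory dendritic cells. Members were chosen by their own counts of these genes. A barcode was a member if it held at least 500 genes, at most 10% of its unique molecular identifiers (UMIs, each the count of 1 captured RNA molecule) from mitochondrial genes, at least 1 UMI of Ccr7, at least 1 of Fscn1, and 0 of Cd3e, Cd3d and Cd3g together. This left 219 members of 23294 barcodes within the limits on genes and mitochondrial RNA. There were 24 members in the PBS library, 105 on day 1 after cisplatin, 87 on day 3 and 3 on day 7. No member's barcode sequence occurred in another library, although 103 barcode sequences were found in more than 1.

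The samples came from wild-type C57/bl6 mice in which 300000 TC-1 cells, a transformed mouse lung epithelial line, had been placed under the skin. Tumours could be seen at about day 5, and at an area of 40 mm2 the mice received 1 intraperitoneal dose of PBS or of cisplatin at 6 mg/kg. Cisplatin is a platinum drug that crosslinks DNA. All 4 groups thus shared the strain and the tumour line, and differed in agent and in the day of collection, which was 1, 3 or 7 after cisplatin. No day is given for the PBS library, which one label also calls untreated, and neither the age of the mice nor the number pooled is given. The labels name the sorted cells innate lymphoid cells, from a gate on CD45+ lineage- CD90+ CD127+ cells. Each group was 1 library, so no test between groups was possible: intervals below are 95% intervals that cover counting error only, and cells are not replicates.

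Migratory dendritic cells are dendritic cells that have taken up antigen, matured and begun to leave a tissue. The receptor CCR7 guides them toward lymph nodes, and fascin, the product of Fscn1, bundles actin into the long processes for which dendritic cells are named. Mature dendritic cells in tumours also raise NF-kB signalling genes and ligands that stimulate or restrain T cells, and they lower the uptake of new antigen.

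Members were a small share of every library. They made up 0.297% of the 8075 barcodes of the PBS library within the limits (exact Clopper-Pearson interval 0.191% to 0.442%). On day 1 the share was 1.40% of 7484 barcodes (1.15% to 1.70%), on day 3 it was 1.75% of 4964 (1.41% to 2.16%), and on day 7 it was 0.108% of 2771 (0.0223% to 0.316%). The intervals of days 1 and 3 lay above that of the PBS library and overlapped each other, and the PBS and day 7 intervals also overlapped. Shares depend on how many other cells the sort let through, which no value here measures.

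Depth differed between the libraries and can move these shares, since a barcode with more UMIs has more chances to show both genes. The members' median was 4119.5 UMIs in the PBS library, 7698 on day 1, 6728 on day 3 and 2289 on day 7, and the other barcodes' medians were 6351, 9173, 6197 and 5122. After each barcode was thinned to 2000 UMIs, with shallower barcodes left out, 0.264% of barcodes met the rule in the PBS library, 1.04% on day 1, 1.80% on day 3 and 0.0840% on day 7. Thinning kept days 1 and 3 above the PBS library and widened the gap between them. With only members at or below 1% macrophage RNA, described further on, the shares were 0.235%, 0.935%, 1.61% and 0.0722%. Members summed to 97331 UMIs in the PBS library, 1013825 on day 1 and 646943 on day 3, so ratios against PBS rest mainly on the PBS counts.

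**Figure D1:**
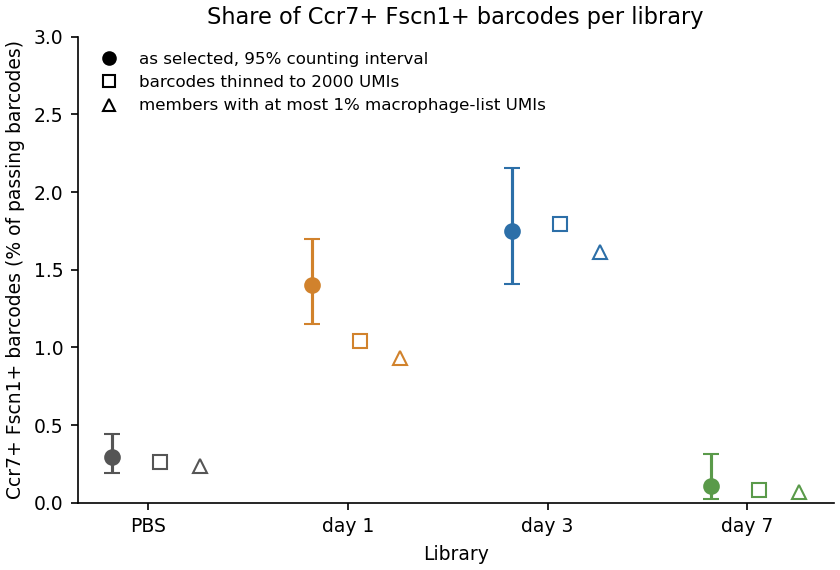
Ccr7+ Fscn1+ barcodes as a share of barcodes within the limits, in percent, by library. Filled points with bars are shares with exact 95% counting intervals, squares are shares after thinning to 2000 UMIs, and triangles are members with at most 1% macrophage-list UMIs. Days 1 and 3 sit above the PBS library under all 3, at 1.40% and 1.75% against 0.297% as selected, and day 7 sits lowest at 0.108%.

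Markers that the rule did not name went with the label. In the deposited feature table the 2 rule genes are Ccr7 (ENSMUSG00000037944, chr11:99144196-99155077, minus strand) and Fscn1 (ENSMUSG00000029581, chr5:142960343-142973185, plus strand), with positions from the mm10 annotation GENCODE vM21. Ccr7 had 2651 UMIs per 1000000 member UMIs (CPM) in the PBS library, 1935 on day 1 and 3696 on day 3. Single PBS members ranged from 671 to 8178 CPM of Ccr7 with a median of 2497, day 1 members from 12.4 to 8479 with a median of 1949, and day 3 members from 28.6 to 11588 with a median of 3710. Members of all 3 libraries overlapped over most of this range, and the low ends on days 1 and 3 came from barcodes with 1 UMI in many. Fscn1 was at 1767, 1106 and 2119 CPM. Because the rule chose on both genes, these levels describe the members and were not compared.

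Ccl22 (ENSMUSG00000031779, chr8:94745590-94751699, plus strand) encodes a chemokine that attracts CCR4-bearing T cells and was the third marker. It had 35 UMIs in 13 of 24 PBS members, 117 in 38 of 105 day 1 members, 251 in 55 of 87 day 3 members, and 0 on day 7. After thinning to 2000 UMIs, 31.8% of the 198 deep enough members held a Ccl22 UMI, against 0.118% of macrophage barcodes. Macrophage barcodes are those with Adgre1 and C1qa and no CD3 gene, 14918 in all, and they were deeper, with median UMIs of 6653.5 for PBS and 9663, 7455 and 5877 for days 1, 3 and 7. Members left out for depth numbered 21.

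The genes with the highest ratio of members to all other barcodes, among genes found in at least 25% of members, described the same state. Besides the 3 markers the leading 20 held Tmem150c, Nudt17, Mreg, Bcl2l14, Adam23, Cacnb3, Fam178b, Siglecg, Adam11, Strip2, Slc27a3, Scin, Flt3, Cacna1s, Il4i1, Cd200 and Tbc1d4. Cacnb3, a calcium channel subunit, had UMIs in 196 of 219 members and 622 CPM against 3.70 in the others. Tbc1d4, a Rab GTPase activator, had UMIs in 207 members and 1637 CPM, 74.5 times its level in the others. Flt3, the receptor for the growth factor that sustains dendritic cells, had UMIs in 98 members and 88.6 CPM against 0.737. The enzyme gene Il4i1, whose product breaks down aromatic amino acids, and Cd200, a ligand that restrains myeloid cells, reached 318 and 371 CPM against 3.31 and 4.74. These ratios come from the cells that the rule picked and carry no test.

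Of 30 genes listed for the mature dendritic programme, 29 had UMIs in members, and Ccl19, a ligand of CCR7, had 0 in all libraries. The list summed to 25244 CPM in PBS members, 17837 on day 1 and 27678 on day 3, against 3397, 3901 and 4621 in macrophage barcodes. Barcodes with Flt3 and no CD3 gene that were not members numbered 23, 28 and 19 in these libraries. Their sums were 3112, 4766 and 12514.5 CPM, so the day 3 ones stood nearer to members. After thinning on day 3, 17.6% of 17 such barcodes held Ccl22 and 29.4% held Il7r, against 40.2% and 51.2% of members. Fabp5, a fatty acid carrier, was at 5548, 3147 and 4657 CPM in members in that order of libraries. Traf1 and Relb, a signalling adaptor and a transcription factor of the NF-kB pathway, were at 1336, 960 and 1493 CPM and at 473, 302 and 572 CPM. Ccl5, a chemokine for T cells, was at 2620, 1473 and 4231 CPM in members and at 72, 221 and 1109 CPM in macrophage barcodes.

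Several defining subset markers had no UMI, although other genes of the subset lists were present. Of the 14 genes listed for type 1 conventional dendritic cells 4 had no UMI in members, and of 16 for type 2 cells 2 had none. The type 1 list summed to 709 CPM in PBS members and 1113 on day 3, and the type 2 list to 1027 and 912. Macrophage barcodes had 348 and 594 CPM of the type 1 list. Their type 2 sums, 1525 and 1914 CPM, were higher than those of members. Xcr1 and Clec9a, which mark type 1 conventional dendritic cells, Cd209a, which marks type 2 cells, and Siglech, which marks plasmacytoid cells, all had 0 UMIs in members. Itgax, which encodes CD11c, had 0 UMIs in PBS members, 5 on day 1 and 4 on day 3. Irf8 and Batf3, factors of the type 1 lineage, were at 524 and 216 CPM in PBS members. Irf4, a factor of type 2 cells, is given in UMIs and not in CPM. It had 2 of 97331 UMIs in PBS members, 27 of 1013825 on day 1 and 20 of 646943 on day 3. The dendritic factor Zbtb46 had a UMI in 18.7% of thinned members and 0.0969% of thinned macrophage barcodes. A subset of origin was therefore not assigned.

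The sort gate was only partly met in RNA. Il7r, which encodes CD127, had 452 CPM in PBS members, 386 on day 1 and 512 on day 3, against 12, 36 and 67 in macrophage barcodes. After thinning, 59.6% of members and 4.93% of macrophage barcodes held an Il7r UMI, and the unthinned shares were 83.6% and 13.8%. Thy1, which encodes CD90, was found in 3.03% of thinned members and 1.58% of thinned macrophage barcodes. Ptprc, which encodes CD45, was found in 29.8% and 49.6%. Thus Il7r was frequent in members, and Thy1 stood near the share seen in macrophage barcodes.

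**Figure D2:**
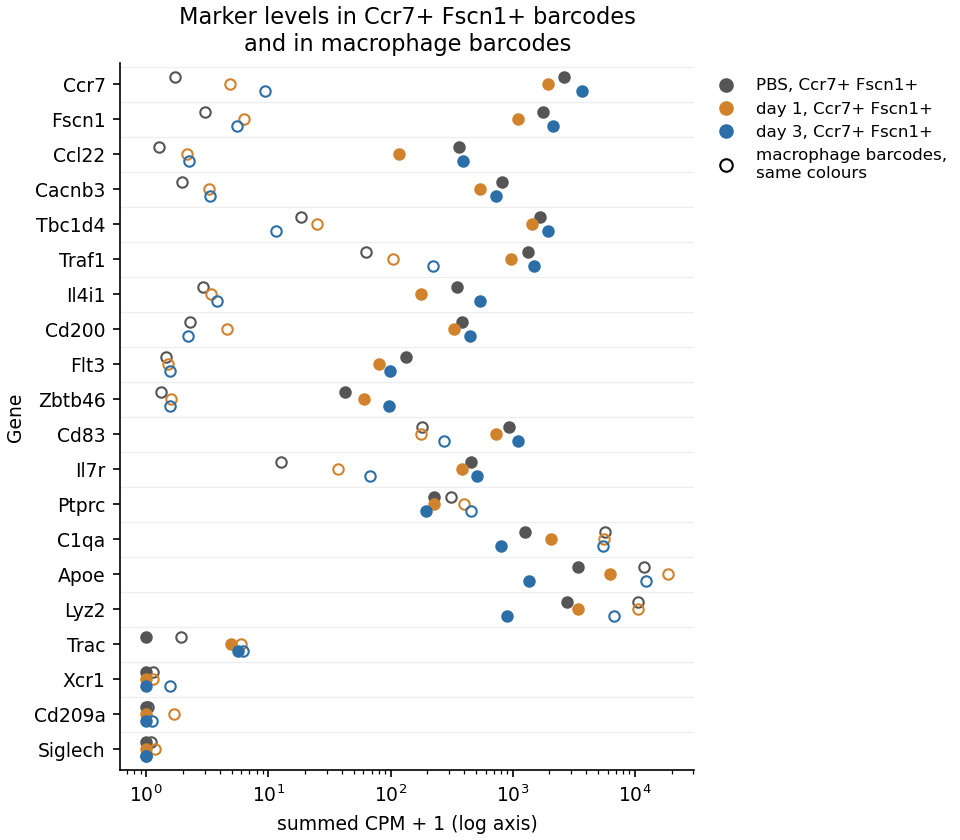
Summed CPM plus 1, on a log axis, of named genes in members (filled points) and macrophage barcodes (open points) of the PBS (grey), day 1 (orange) and day 3 (blue) libraries. Tbc1d4, Cacnb3 and Il7r are higher in members in all 3 libraries, C1qa, Apoe and Lyz2 are lower in members, and Xcr1, Cd209a and Siglech are at 0 in members.

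Macrophage RNA was present in members and differed between libraries. Of 16 macrophage genes, the list summed to 12165 CPM in PBS members, 18672 on day 1, 5410 on day 3 and 51967 in the 3 day 7 members, against 45082, 53794, 41368 and 55056 CPM in macrophage barcodes. All 16 had UMIs in members. The list's share of a member's UMIs had a median of 0.539% among PBS members, whose lowest and highest were 0.333% and 4.24%. Day 1 members had a median of 0.588% and ranged from 0.239% to 8.28%, day 3 members had 0.244% and ranged from 0.0618% to 3.53%, and those of day 7 had 0.753% and ranged from 0.743% to 7.28%. Day 3 members were the lowest group, and 66 of 87 lay below the lowest PBS member. In thinned members, C1qa, a complement gene of macrophages, was found in 63.6%, and Apoe, a lipid carrier, in 88.9%. Members above 1% numbered 5 in the PBS library, 35 on day 1, 7 on day 3 and 1 on day 7, and Scrublet, a doublet caller, put 0, 18, 8 and 1 members among the barcodes with the highest doublet scores. Whether free RNA or doublets brought this RNA was not tested, so several but not all counts below are also given for members at or below 1%.

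Members just inside the rule differed from the rest in their markers. The 10 members with exactly 1 UMI of each rule gene had 0 CPM of Ccl22, 20.1 CPM of Cacnb3, 26.8 of Tbc1d4 and 4316 of C1qa. The other 209 had 248 CPM of Ccl22, 678 of Cacnb3, 1785 of Tbc1d4 and 1335 of C1qa. Just outside, 369 barcodes with Ccr7 alone had 15.7 CPM of Ccl22 and 71.7 of Tbc1d4, and 490 with Fscn1 alone had 2.49 and 15.8. A further 44 barcodes had both genes and a CD3 UMI, 28 of them on day 1.

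**Figure D3:**
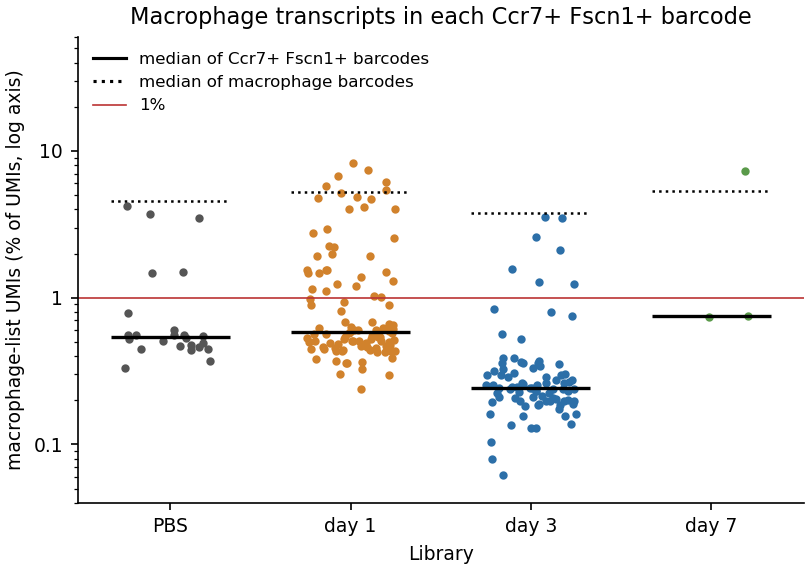
Share of UMIs from the 16 macrophage genes in each member, in percent on a log axis, by library. Points are single members, solid bars their medians, dotted bars the medians of macrophage barcodes, and the red line marks 1%. Most day 3 members sit below the PBS members, with a median of 0.244%, and 35 day 1 members sit above the red line.

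Ratios between libraries were taken for members' summed CPM. A gene was called higher or lower at a 2-fold difference or more with an interval that excluded 1, among genes with at least 20 UMIs over both libraries. The 3 comparisons share libraries, the PBS library serving in 2 and each cisplatin library in 2, so they are not independent. Between day 1 and PBS, 2.34% of 5971 genes were called higher and 1.57% lower. Between day 3 and PBS the shares were 3.66% and 2.72% of 4260 genes. Between day 3 and day 1 they were 4.04% and 11.6% of 6958 genes. Rescaling with DESeq2's size factors moved the median of all genes between day 3 and day 1 from -0.15 to -0.03 on the log2 scale.

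Among the lists examined, the one with the most genes called on day 3 against PBS was that of genes induced by type I interferon. Many of these genes encode antiviral proteins, and they are switched on through the interferon receptor. Of 49 listed genes, 41 were tested, 25 were called higher and none lower, against 3.66% higher among all genes. The list's median log2 ratio was 1.73, beside 0.08 over all genes tested. In macrophage barcodes 44 of 47 were called higher, with a median of 2.11 beside -0.06 over all their genes. Macrophage barcodes numbered 6484 in the PBS library and 2186 on day 3, so their counting intervals were narrower than those of members. The share of all genes called in them is not given. Their counts called, here and below, are therefore not comparable with those of members. With members at or below 1% macrophage RNA, 21 of 39 were higher, with a median of 1.71. With members that held a Ccl22 UMI, 13 in the PBS library, 11 of 35 were higher, with a median of 1.10.

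Isg15 (chr4:156199424-156200818, minus strand), a ubiquitin-like protein, had 24 UMIs in 11 PBS members, 157 in 46 day 1 members and 1063 in 76 day 3 members. These were 247, 155 and 1643 CPM, and macrophage barcodes had 88, 135 and 1078. Medians per member were 0 CPM in the PBS library, 0 on day 1 and 684 on day 3, with highest values of 1161, 6377 and 8494. Day 3 members were mostly above 0 while the other libraries' were mostly at 0, and the groups overlapped. The day 3 to PBS ratio was 6.66 (4.45 to 10.4), and the day 3 to day 1 ratio was 10.6 (8.97 to 12.6). Irf7, a factor that amplifies the response, had 3, 62 and 296 UMIs in the PBS, day 1 and day 3 libraries, a day 3 to PBS ratio of 14.8 (5.03 to 72.4).

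Further effector genes of the list had few or no UMIs in PBS members. Rsad2, which encodes the antiviral enzyme viperin, had 2, 35 and 156 UMIs and a day 3 to PBS ratio of 11.7 (3.19 to 97.8). Ifit1, which binds foreign RNA, had 0, 23 and 165 UMIs, so that it was at least 8.27-fold higher on day 3 than the level of 3 counts in PBS members. Ifit3, its partner, had a ratio of 15.9 (2.80 to 636). Usp18, which removes ISG15 from proteins, had a ratio of 13.1 (2.29 to 523), and Bst2, which tethers virus particles, one of 3.20 (2.05 to 5.30). The wide intervals come from the few PBS counts.

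The interferon-stimulated response element (ISRE), a short DNA motif found near many interferon-induced genes, was looked for before the start of these genes. Windows came from RefSeq on GRCm38.p6, the assembly that mm10 names, and spanned 250 bases before to 50 after the start. The search string was TTTCNNTTTC on both strands, with overlapping matches joined. Of 25 list genes called higher on day 3, 18 matched the table by symbol and 11 (61.1%) held the string, among them Isg15, Ifit1, Ifit3 and Rsad2. Of the tested but uncalled list genes, 5 of 13 (38.5%) held it, and of all 27025 genes 3.99% did. None of 18 matched genes among the leading 20 held it. Bst2, also described above, held the string at -130 to -115 from its start and is not shown. A string from each of Isg15, Ifit1, Ifit3 and Rsad2 follows, with 1 match in capitals and 20 bases on each side. Each is read 5′ to 3′ on the gene's strand.
Isg15, chr4:156200855-156200916, minus strand: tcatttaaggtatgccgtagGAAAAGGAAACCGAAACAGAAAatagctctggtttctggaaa
Ifit1, chr19:34640784-34640833, plus strand: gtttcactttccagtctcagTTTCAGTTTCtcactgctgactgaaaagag
Ifit3, chr19:34583387-34583436, plus strand: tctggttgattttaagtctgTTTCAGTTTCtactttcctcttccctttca
Rsad2, chr12:26456543-26456592, minus strand: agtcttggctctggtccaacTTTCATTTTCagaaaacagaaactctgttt
Isg15 carries overlapping copies on the opposite strand, where the string reads GAAANNGAAA, 78 to 57 bases before its start. Ifit1 and Ifit3 each held another match, at -104 to -95 and at -156 to -147 from the start, and that of Ifit1 also falls within the lower-case bases shown. A match is a description of the letters and not a measured site.

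The response was spread over many members. The list summed per member to a lowest, median and highest of 593, 2462 and 9729 CPM in the PBS library, 430, 2111 and 12471 on day 1, and 739, 7187 and 51104 on day 3. On day 3, 79 of 87 members were above the PBS median and 31 above the highest PBS member, whereas 3 of 105 day 1 members were above that highest value. Across the 87 day 3 members the list's level and the macrophage share had a Spearman correlation of 0.24. The correlation was 0.32 across the 105 day 1 members and 0.55 across the 24 PBS members. Both measures share each member's UMI total. Between day 1 and PBS none of 33 tested genes of the list were called in either direction, with a median of 0.16 beside 0.13 over all genes.

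**Figure D4:**
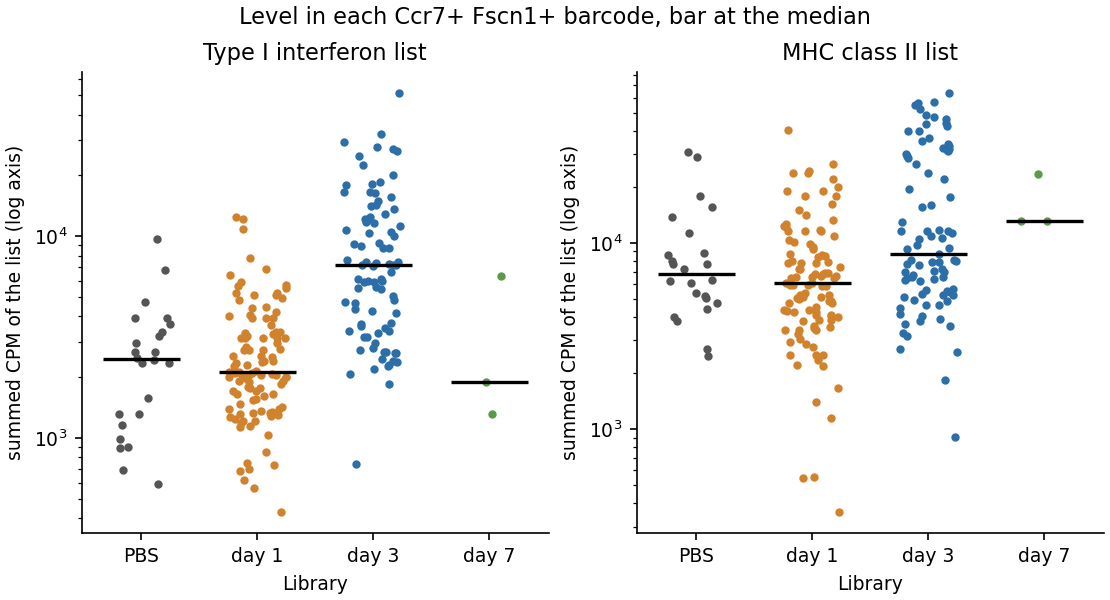
Summed level of the type I interferon list (left) and the MHC class II list (right) in each member, in CPM on a log axis, by library. Points are single members and bars are medians. On the left 79 of 87 day 3 members are above the PBS median of 2462 CPM, and on the right day 3 members spread from 909 to 63573 CPM, with 21 above the highest PBS member.

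Fewer genes of the interferon-gamma list were called. Of 22 tested, 6 were called higher on day 3 against PBS and none lower, with a median log2 ratio of 0.97. Among all genes 3.66% were higher. In macrophage barcodes, with far more UMIs, 25 of 29 genes of the list were higher. Their median was 2.38, beside -0.06 over all genes of those barcodes. Cd274, which encodes the inhibitory ligand PD-L1, was at 82, 108 and 223 CPM in the PBS, day 1 and day 3 libraries, a day 3 to PBS ratio of 2.71 (1.34 to 6.39). Cxcl10, a chemokine for CXCR3-bearing T cells, had 6, 311 and 412 UMIs and a ratio of 10.3 (4.71 to 28.3). On day 1, 51.1% of the Cxcl10 UMIs were in 1 member. Cxcl9, a related chemokine, had 5, 47 and 467 UMIs, and 84.6% of its day 3 UMIs were in 1 member. Its day 3 to PBS log2 ratio was 3.81, 1.87 without the member with the most UMIs in each library, and 1.22, not called, with members of at least 2 Ccr7 UMIs.

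MHC class II genes, which present antigen to CD4 T cells, also exceeded the background of 3.66% on day 3 against PBS. Of 12 tested genes, 6 were called higher and 1 lower, with a median log2 ratio of 1.44, and in macrophage barcodes 8 of 13 were higher with a median of 2.00. With members at or below 1% macrophage RNA 6 of 12 were higher, and with members that held a Ccl22 UMI 4 of 10. H2-Ab1 (chr17:34257689-34269419, plus strand), a class II beta chain, had 55 UMIs in 11 PBS members, 392 in 63 day 1 members and 1452 in 63 day 3 members, or 565, 387 and 2244 CPM. Its ratio of day 3 to PBS was 3.97 (3.03 to 5.30). H2-Aa and H2-Eb1, other class II chains, had ratios of 2.61 (2.18 to 3.15) and 2.87 (2.34 to 3.54). H2-DMb1 and H2-DMb2, chains of the peptide exchange factors, had ratios of 5.27 (1.40 to 44.3) and 14.7 (4.01 to 122). The invariant chain gene Cd74 was at 3966, 2573 and 7645 CPM and was not called between day 3 and PBS, at a ratio of 1.93. The lower gene was Lgmn, a lysosomal protease, at 0.489, and with members at or below 1% macrophage RNA its log2 ratio was -0.04.

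Class II levels were uneven among day 3 members. The list summed to 2460, 6779 and 30685 CPM (lowest, median, highest) in PBS members, 359, 6056 and 40114 on day 1, and 909, 8746 and 63573 on day 3. The day 3 median was close to that of PBS, while 21 of 87 members were above the highest PBS member and the upper quartile stood at 29488 CPM. High class II members were thus a part of the day 3 group. Across day 3 members the class II and type I sums had a Spearman correlation of 0.04, and the class II sum and the macrophage share had one of -0.24. Between day 1 and PBS none of 9 tested class II genes were called.

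MHC class I genes, which present antigen to CD8 T cells, showed a smaller difference. Of 22 tested, 4 were called higher on day 3 against PBS (Tap2, Psmb10, H2-T23 and H2-T22) and none lower. Among all genes 3.66% were higher, and the list's median log2 ratio was 0.71. With members at or below 1% macrophage RNA 2 of 22 were higher, and with members that held a Ccl22 UMI 1 of 21. The sum per member had medians of 14525, 17109 and 23880 CPM in the PBS, day 1 and day 3 libraries, and 82 of 87 day 3 members were above the PBS median. H2-K1, a classical class I heavy chain, was at 2702, 3028 and 4956 CPM and was not called.

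Ligands for T cells and cytokines were detected in PBS, day 1 and day 3 members. Cd40, which receives help from T cells, was at 113, 82 and 266 CPM, a day 3 to PBS ratio of 2.35 (1.28 to 4.80). Cd80 and Cd86, ligands of CD28, were at 154, 126 and 233 CPM and at 329, 211 and 539 CPM and were not called against PBS. Of 10 tested co-stimulatory ligands, 2 were higher, Cd40 and the adhesion gene Icam1, beside 3.66% of all genes. Icam1 had a ratio of 2.40 (1.49 to 4.11), and with members at or below 1% macrophage RNA its log2 ratio was 0.91, not called. Il12b, the shared chain of interleukins 12 and 23, had 8 UMIs in 4 PBS members, 38 in 9 day 1 members and 80 in 16 day 3 members. Napsa, an aspartic protease gene of the pan dendritic list, was at 103, 69 and 323 CPM, with a day 3 to PBS ratio of 3.14 (1.68 to 6.65).

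For the mature dendritic programme the count called on day 3 against PBS was near the background of 3.66% higher and 2.72% lower. Of 27 tested genes, 1 was higher, the cytokine receptor chain Il15ra, which was not called with members at or below 1% macrophage RNA, and 1 lower, Zmynd15 at 0.420 (0.272 to 0.666), with a median log2 ratio of 0.17. The NF-kB list had 2 of 24 genes higher, Icam1 and the feedback inhibitor Tnfaip3, and none lower, and neither was called with members at or below 1% macrophage RNA. Of 29 actin and dendrite genes none were called, and Actb was at 25408, 13993 and 22596 CPM in the PBS, day 1 and day 3 libraries.

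For day 1 against PBS, 140 genes were higher and 94 lower, or 2.34% and 1.57% of all genes tested. Of 15 tested chemokine genes 5 were higher (Ccl2, Ccl8, Ccl9, Cxcl10 and Cxcl12) and 2 lower (Ccl22 and Cxcl2), with a median log2 ratio of 0.39. With members at or below 1% macrophage RNA the tally was 3 higher against 3 lower, the median -0.65 and the Ccl8 log2 ratio -0.86, and with members of at least 2 Ccr7 UMIs 1 of 14 was higher. Ccl2, a monocyte chemokine, had 5 UMIs in PBS members, 255 on day 1 and 82 on day 3, a day 1 to PBS ratio of 4.90 (2.07 to 15.2). All 79 Cxcl12 UMIs of day 1 were in 1 member. Ccl22 was at 360, 115 and 388 CPM in the 3 libraries, a day 1 to PBS ratio of 0.321 (0.218 to 0.483), and its ratio stayed called with members at or below 1% macrophage RNA, at -1.51 on the log2 scale. Cxcl2, a neutrophil chemokine, was at 945, 251 and 657 CPM, a ratio of 0.265 (0.208 to 0.340). It was found in 10 of 24 PBS members and 81 of 105 day 1 members, so fewer PBS members held more of it. Pdcd1lg2, which encodes the inhibitory ligand PD-L2, had 7, 19 and 37 UMIs, a day 1 to PBS ratio of 0.261 (0.105 to 0.734). Of 27 mature programme genes 1 was lower and none higher for day 1 against PBS, beside 1.57% lower among all genes. The list had a median log2 ratio of -0.45, and with members of at least 2 Ccr7 UMIs that median was -0.08. Nfkb1 and Traf2 were lower among 24 NF-kB genes, and Nfkb1 was not called with members of at least 2 Ccr7 UMIs.

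A few genes induced by p53, the DNA damage factor, were called higher in cisplatin members. Cdkn1a, which encodes the cell cycle inhibitor p21, had 36 UMIs in PBS members, 755 on day 1, 614 on day 3 and 35 in the 3 day 7 members. In CPM this was 370, 745 and 949 for PBS, day 1 and day 3, with medians per member of 0, 381 and 841. The day 1 to PBS ratio was 2.01 (1.44 to 2.90) and the day 3 to PBS ratio 2.57 (1.83 to 3.70). Bax, a promoter of cell death, had a day 1 to PBS ratio of 2.03 (1.23 to 3.59), not called with members at or below 1% macrophage RNA, and Ccng1, a cyclin, had 1, 98 and 31 UMIs. Of 18 tested p53 genes 3 were higher for day 1 against PBS and none lower, with a median of 0.32, beside 2.34% higher among all genes. None of 15 were called with members of at least 2 Ccr7 UMIs, and 1 of 18 under TMM or DESeq2 scaling. For day 3 against PBS 1 of 13 was higher, beside 3.66% of all genes. In macrophage barcodes 11 of 30 were higher on day 1, with a median of 0.71 beside 0.11 over all their genes. The list's sum per member had medians of 1327, 1908 and 2278 CPM, and 74 of 105 day 1 and 78 of 87 day 3 members were above the PBS median.

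Of 22 tested heat shock and immediate-early genes, 3 were lower on day 3 than in PBS (Hspa1a, Hspa1b and Jun) and 1 was higher (Egr1), beside 2.72% lower among all genes. Hspa1a, an inducible chaperone, was found in 20 of 24 PBS members, 85 of 105 on day 1 and 31 of 87 on day 3, at 1736, 1017 and 241 CPM. Medians per member were 1263, 435 and 0 CPM, so day 3 members mostly lacked what PBS members mostly had. The day 3 to PBS ratio was 0.139 (0.111 to 0.174). Hspa1b, its near-identical copy, whose reads may not be separable from it, was at 1233, 845 and 230 CPM, and Jun, an immediate-early factor, at 2127, 1558 and 818. Macrophage barcodes differed less for Hspa1a, with a log2 ratio of -1.02 against -2.85 in members. These genes also respond to tissue digestion and handling, whose part was not tested.

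Cell cycle genes were high in a few day 1 members. Of 22 tested G2M genes, 6 were called higher for day 1 against PBS and 1 lower, with a median log2 ratio of 1.26. Among all genes 2.34% were called higher and 1.57% lower. Without each gene's member with the most UMIs none of the 22 were called. That setting drops a member from each library, and a gene then left at 0 in PBS members is compared with 3 counts. A call is harder to reach there, so the setting cannot tell whether 1 member carried the calls. The sum per member had a median of 713 CPM in the PBS library and 477 on day 1. On day 1, 7 of 105 members were above the highest PBS value of 1774, and the highest value was 10263. Birc5, which guides chromosome separation, had 1 UMI in PBS members and 119 in 9 day 1 members. With members of at least 2 Ccr7 UMIs, none of 5 tested genes were higher and 1 was lower, and the median was -0.13. Of the 7 high members, 4 had a single Ccr7 UMI, and the highest, a barcode of 80675 UMIs with 1 UMI of Ccr7 and 3 of Fscn1, had the lowest mature programme level of all day 1 members, 1562 CPM. For day 3 against day 1, 20 of 23 genes were lower, with a median of -2.48, beside 11.6% lower among all genes. With members of at least 2 Ccr7 UMIs, 1 of 4 was lower.

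Macrophage genes were lower on day 3. For day 3 against PBS 8 of 15 tested genes of the macrophage list were lower and none higher, with a median of -1.15. Among all genes 2.72% were lower. In macrophage barcodes 1 of 16 genes of the list was lower. Apoe was at 3432, 6226 and 1356 CPM and Lyz2, which encodes lysozyme, at 2805, 3418 and 901 CPM in members. With members at or below 1% macrophage RNA, 4 of 13 listed genes were lower and the median was -0.55. That limit is set on this same list, so this count is not independent of it. With members that held a Ccl22 UMI 13 of 15 were lower. Of 26 endocytosis and lysosome genes 5 were lower and none higher, beside 2.72% lower among all genes. Mrc1, at a log2 ratio of -4.12, is on this list and on the macrophage list, so these counts are not independent. For the endocytosis and lysosome list no count is given with members at or below 1%. In macrophage barcodes the type I interferon and class II lists were also higher on day 3 than in PBS, with medians of 2.11 and 2.00. The part of macrophage RNA in the members' other ratios was not tested beyond the counts given with members at or below 1%.

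**Figure D5:**
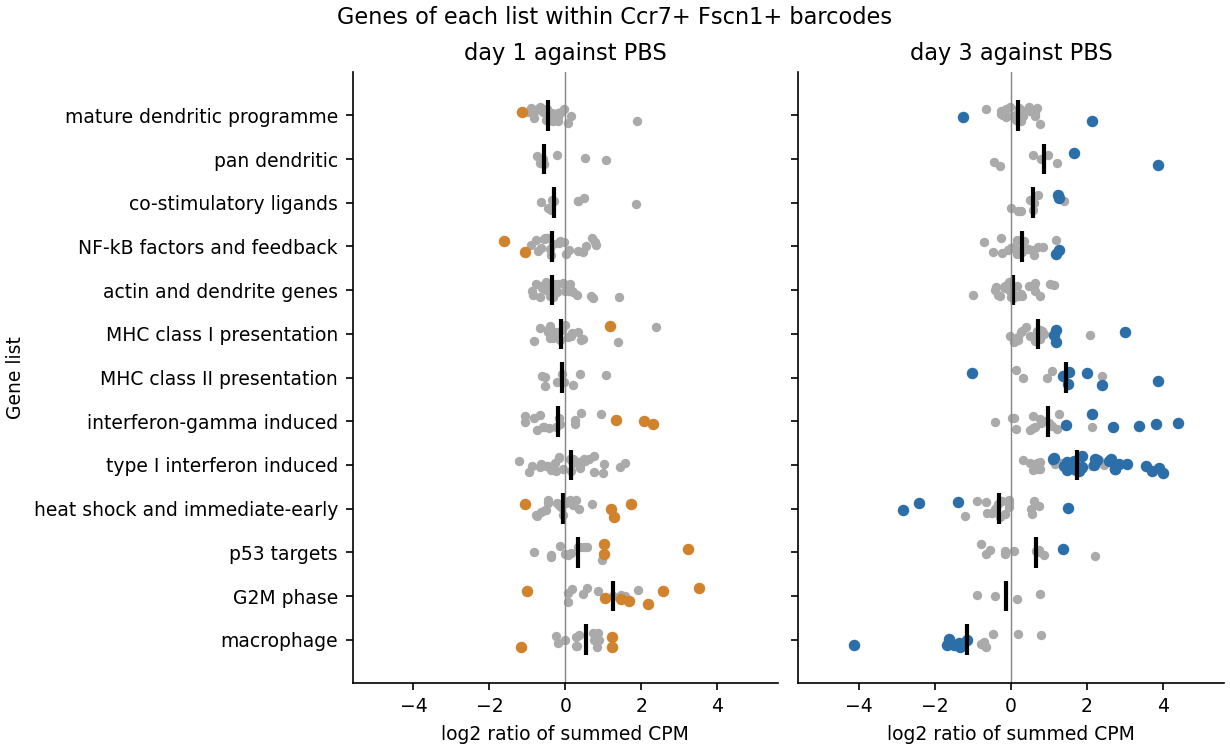
Log2 ratio of members' summed CPM for each tested gene of 13 lists, for day 1 against PBS (left) and day 3 against PBS (right). Points are genes, coloured where called and grey where not, and black bars are list medians. On the right the type I interferon list has a median of 1.73, the macrophage list one of -1.15, and the mature dendritic programme one of 0.17.

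The direct comparison of the cisplatin days repeated the day 3 pattern with more counts. For day 3 against day 1, 35 of 44 type I interferon genes were higher, 10 of 13 class II genes and 18 of 24 interferon-gamma genes, beside 4.04% of all genes. March1, which is on the class II presentation list but encodes no class II chain, was lower, as was 1 interferon-gamma gene. With members at or below 1% macrophage RNA the counts were 37 of 41, 10 of 12 and 12 of 22. Ccl22 had a ratio of 3.36 (2.69 to 4.22), Ccl5 of 2.87 (2.70 to 3.06), and Il4i1 of 3.06 (2.55 to 3.69). Irf8 had a ratio of 2.61 (2.28 to 2.98), Cd86 of 2.56 (2.15 to 3.04) and Cd40 of 3.25 (2.48 to 4.27). Of 27 mature programme genes, 2 were higher (Ccl5 and Il4i1), with a median of 0.57 beside -0.15 over all genes. Macrophage genes were lower for 12 of 16, beside 11.6% of all genes.

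A single day 1 barcode held most of one unrelated signature. It met the rule with 1 UMI of Ccr7 and 7 of Fscn1, had 37813 UMIs in all, and carried 421 of the 440 UMIs of 10 endothelial genes found in day 1 members (95.7%). Fabp4, a fatty acid carrier of vessels, had 826 UMIs in day 1 members, 98.5% of them in this barcode. Between day 3 and day 1, 8 of 9 endothelial genes were lower, beside 11.6% of all genes. Without this barcode none of the 10 reached 20 UMIs.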

How the data were processed

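Single-cell 3′ RNA libraries were made from cells sorted from tumours of PBS or cisplatin treated mice, 1 library for each of 4 groups. Cell Ranger 3.1.0, Seurat 3.1.2 and build mm10 are listed per the submitters' processing notes. The authors deposited filtered matrices of raw UMI counts per gene and barcode for 31053 features, and no cell type names were used. Library totals were 59915831 UMIs (PBS), 82493626 (day 1), 36587207 (day 3) and 16153484 (day 7), over 30053 barcodes. Members were found by the rule on raw counts. Counts were summed over the members of a library and given per 1000000 (CPM) with exact Poisson intervals, shares with exact Clopper-Pearson intervals, and ratios with exact conditional binomial intervals, all at 95% and for counting error only. Genes at 0 in a library were compared with 3 counts per library. The 3 members of day 7 gave counts and no ratios. With 1 library per group no p-value was computed. Lists were 17 of markers and 20 of functions, with 687 symbols, 4 of them not among the features. Members, lists and comparisons were chosen with earlier results of these data known. Named were the markers, list genes with the most UMIs or largest ratios, the highest and lowest genes per comparison, and the 20 leading genes. Irf4, Itgax, Ccl19, Xcr1, Clec9a, Cd209a, Siglech, March1 and Ccl9 were named for their role or call, after their values were seen. Scrublet's automatic threshold marked no barcode and so had not worked, and in its place the barcodes with the highest scores, 650, 643, 249 and 66 by library, were left out as an alternative. Other alternatives were thinning, stricter rules, TMM and DESeq2 size factors, a mean over members, other UMI minimums, and leaving out single members. Scripts were tested on simulated data. Tools were Python 3.11.15 with numpy 2.4.6, scipy 1.17.1, pandas 2.3.3, scanpy 1.11.5 and matplotlib 3.10.9, and R 4.3.3 with edgeR 4.0.16 and DESeq2 1.42.0 for size factors only. Promoter windows came from RefSeq on GRCm38.p6.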

Additional observations from a re-analysis of the deposited data

How the results depend on the processing

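No paired analysis was possible because each group is 1 library. The day 1 share of members was 1.78% with no limit on CD3 genes, 1.04% after thinning to 2000 UMIs and 0.935% with at most 1% macrophage RNA. Genes higher on day 1 than in PBS numbered 140, and 72 with at least 2 Ccr7 UMIs, 61 with a Ccl22 UMI, 91 with at most 1% macrophage RNA and 999 with a mean of each member's CPM. Genes lower on day 1 numbered 94, and 354 with that mean, 31 without the member with the most UMIs of each gene and 51 at a minimum of 50 UMIs. Genes higher on day 3 than in PBS numbered 156, and 709 with the mean. Genes lower on day 3 than in PBS numbered 116, and 64 with at most 1% macrophage RNA, 263 with the mean, 52 without the top member, 45 at 50 UMIs and 205 with no minimum. Genes lower on day 3 than on day 1 numbered 805, and 474 with at least 2 Ccr7 UMIs, 325 with a Ccl22 UMI, 462 with at most 1% macrophage RNA, 515 without the highest Scrublet scores and 373 at 50 UMIs. The mean of each member's CPM was called on the 2-fold difference alone, with no interval. Its counts therefore rest on a looser rule and are not comparable with the others. The other minimums test fewer or more genes, and stricter rules leave fewer members. Otherwise the cause was not tested. The Ccl8 log2 ratio of day 1 to PBS turned to -0.86 with at most 1% macrophage RNA and -0.54 without the highest Scrublet scores, and that of day 3 to day 1 to 0.14 and 0.052. The Ccl2 log2 ratio of day 3 to PBS turned to -0.32 without those scores. In all settings run, the type I interferon list on day 3 against PBS had 11 to 35 genes higher and none lower. The 24 PBS members with 97331 UMIs limit every ratio against PBS, and the 3 members of day 7 allow none.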

Other observations

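The 3 members of day 7 had 13855 UMIs in all, of which 9441 were in 1 barcode. That library's members held 35 UMIs of Cdkn1a, 3 of Isg15, in 1 member, and 0 of Ccl22. Their macrophage list summed to 51967 CPM, beside 55056 CPM in the macrophage barcodes of that library.

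The PBS library is shared by all ratios that follow. Tff1 encodes a secreted trefoil peptide of mucosal epithelia. It had 24 UMIs in 4 PBS members, 12 in 6 day 1 members and 4 in 4 day 3 members. Of its PBS UMIs, 50% were in 1 member. Its day 1 to PBS ratio was 0.0480 (0.0219 to 0.0998) and its day 3 to PBS ratio 0.0251 (0.00632 to 0.0730). Timd4, a receptor for phosphatidylserine on dying cells and a gene of the endocytosis list, had 11, 21 and 31 UMIs and ratios of 0.183 (0.0845 to 0.421) and 0.424 (0.207 to 0.935). Kdm4a, a histone demethylase, had 18, 29 and 96 UMIs and a day 1 to PBS ratio of 0.155 (0.0830 to 0.296), and its day 3 to PBS ratio of 0.802 (0.482 to 1.41) was not called.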
